A study of Schizosaccharomyces pombe with 4 samples.

Results

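Sak1, the RFX-family transcription factor of the fission yeast Schizosaccharomyces pombe, was mapped by chromatin immunoprecipitation and sequencing (ChIP-seq), and its peaks are described here with the genes they lie beside. All 47 peaks called for Sak1-TAP against the untagged strain were taken, of 210 peaks in the series, and were ordered by normalised tag count. Of these, 46 lay on the nuclear chromosomes and 1 on the mitochondrial chromosome. A gene counted as in reach if the peak centre lay from 1000 bp upstream to 250 bp downstream of its annotated 5′ end. By this rule 54 protein-coding genes were in reach of a Sak1 peak, which is 1.06% of the 5113 nuclear protein-coding genes.

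Strain JLP1792 expressed Sak1 fused at its C terminus to TAP, a purification tag held by IgG beads, and strain F108 carried no tag. Fkh2 was tagged in the same way in JLP1586 and Sep1 in JLP1670. All were grown asynchronously in YES medium, a rich medium, and precipitated on IgG Sepharose; the labels record a drug for JLP1670 alone, 45 min of the proteasome inhibitor bortezomib at 1 mM. Each of the 4 samples pools 2 biological experiments, so no replicate error can be computed, no test between samples was possible, and all intervals below cover counting error only. The files do not measure tag levels, and no RNA was measured, so a gene in reach of a peak is a position and not a regulated gene.

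RFX factors bind DNA as dimers through a winged-helix domain. Their site, the X box, is an inverted repeat in which each arm reads GTTGCCA or a close form of it, and each subunit contacts 1 arm. Fkh2 and Sep1 are forkhead factors, whose word GTAAACA lies upstream of a cluster of fission yeast genes that are transcribed in M phase and encode regulators of mitosis, the contractile ring and cell separation. In fission yeast Sak1 is essential and was first described as acting downstream of protein kinase A, at the exit from the mitotic cycle.

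The DNA beneath the peaks that head the list is shown first, because it holds the words the later results count. Capitals mark the forkhead word, the RFX arm words GTTGCCA or GTTACCA or GTTGCTA or GTTGTCA on either strand, and the outer 4 bases of each arm of an inverted pair. Sequences are the forward strand of assembly ASM294v3.

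mde6/pun1, rank 1, I:3696467-3696547: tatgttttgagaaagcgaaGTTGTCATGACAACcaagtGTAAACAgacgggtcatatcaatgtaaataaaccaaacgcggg

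ecm33, rank 2, I:1571670-1571750: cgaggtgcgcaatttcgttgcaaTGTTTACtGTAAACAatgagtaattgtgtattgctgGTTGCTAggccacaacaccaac

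rep2, rank 3, II:1717428-1717543: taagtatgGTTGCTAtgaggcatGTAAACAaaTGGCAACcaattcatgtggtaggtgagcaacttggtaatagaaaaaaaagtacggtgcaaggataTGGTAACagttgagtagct

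The first sequence holds an inverted pair of arms 5 bases before a forkhead word. The second holds a pair of inverted forkhead words and a single arm, and the third holds 3 single arms around a forkhead word. The peaks with the highest and the lowest deposited fold over the untagged control, at mug122 and plo1, both held an inverted pair and a forkhead word.

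mug122, rank 5, III:401792-401882: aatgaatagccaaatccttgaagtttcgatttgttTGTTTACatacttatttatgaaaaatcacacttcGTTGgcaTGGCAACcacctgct

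plo1, rank 22, I:2164162-2164229: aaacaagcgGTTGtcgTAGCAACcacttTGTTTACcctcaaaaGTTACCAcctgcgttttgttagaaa

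Normalised tag counts, scaled by the authors to 10000000 tags, ran from 440.2 to 4402 over the 47 peaks with a median of 1849. Fold values over the untagged control, the authors' own per peak, ran from 5.25 to 369 as deposited, with a median of 18.3. The untagged library gave 0.5 to 22 tags per peak, with a median of 4, against a mean of 9.05 expected for a stretch of this width. Of the 46 nuclear peaks, 11 had more control tags than this mean. The Sak1 library held 795148 tags, of which 0.965% lay in peaks, and the control about 0.611 times as many, a ratio inferred from the folds. The 95% counting interval of the fold lay wholly above 4, the fold the caller required, at 38 of 47 peaks. A control value of 0.5, the lowest listed, stood behind 3 folds, the highest among them. At the 3 genes concerned, mug122, bet1 and pgm1, the fold is given below against 3 control tags, a value set here. The lower 95% counting limit of the deposited fold is given beside it, and that limit also rests on the value of 0.5.

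**Figure D1:**
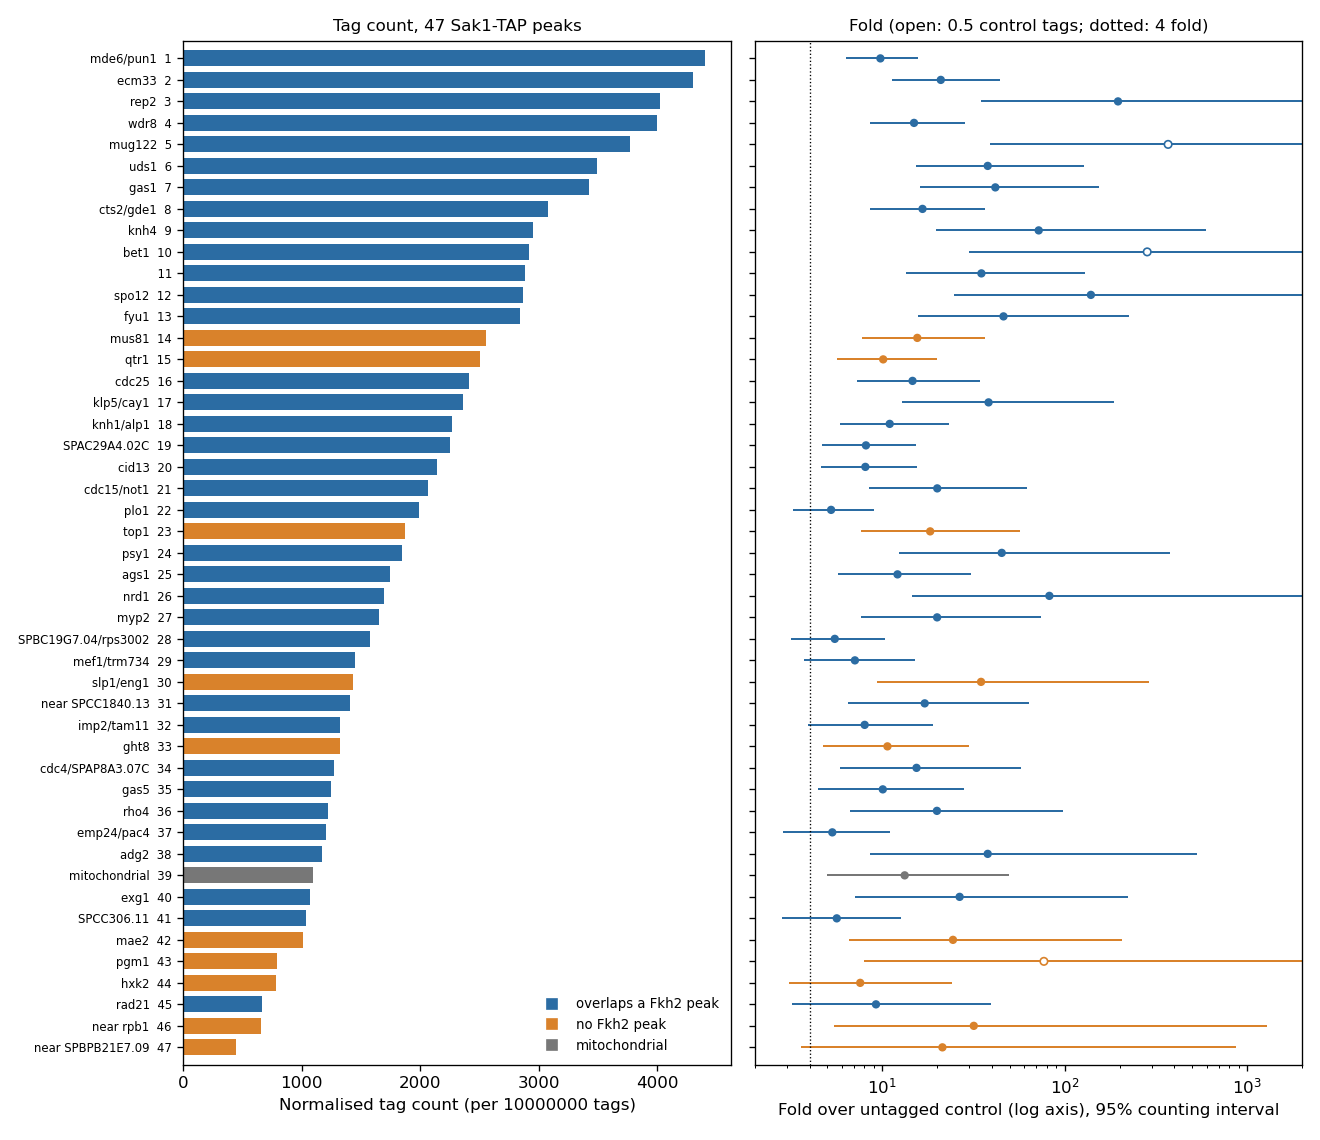
Normalised tag count (left, tags per 10000000) and fold over the untagged control (right, log axis) for the 47 Sak1-TAP peaks, numbered by rank and, except at rank 11, named by the genes in reach; lines are 95% counting intervals, cut at 2000, and the dotted line is 4 fold. Tag counts fall from 4402 to 440.2, while high and low folds occur along the whole list (open circles rest on 0.5 control tags), and peaks without a Fkh2 peak (orange) begin at rank 14.

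Of the 46 nuclear peaks, 36 overlapped a Fkh2 peak by at least 1 bp and 10 did not. The Fkh2 list held 152 peaks, which had 145 genes in reach (2.84% of 5113). The 36 held 45 of the 54 genes, and the 10 held 9 genes. Peaks with a Fkh2 peak had tag counts from 666.5 to 4402 (median 2100.2), and those without had 440.2 to 2553 (median 1163). The groups overlapped widely, and the first 13 peaks of the list all had a Fkh2 peak. In fold over control the order of the medians was the other way, 18.5 with and 19.9 without. Control tags had medians of 4.25 and 3.5. None of the 10 lay close to a Fkh2 peak: the nearest Fkh2 centre was 10373 bp away at slp1, the closest, and 118215 bp away at top1, the farthest. Only called peaks were compared, and Fkh2 tags at the 10 were not measured here. Of 5476 putative Fkh2 peaks, 4969 were removed against the control and 355 against local signal. At the shared peaks the Fkh2 library had tag counts of 479.4 to 6836, a median of 1817.

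Peaks with a gene in reach lay mostly just before its start. The centre fell a median of 90 bp upstream of the nearest gene start in reach, from 929 bp upstream to 31 bp downstream. The median was 75 bp for peaks with a Fkh2 peak and 103 bp for those without. Of the 46 centres, 36 lay between protein-coding genes, 6 in an annotated 3′ UTR of a neighbouring gene, 2 in coding sequence, 1 in a 5′ UTR and 1 in an intron. The share of all positions that lie between genes or have one in reach was not computed, so these counts have no background here. A long noncoding RNA gene was annotated over 18 of the 46 centres (39.1%), close to the 41.8% of points set 90 bp upstream of every gene start. The count was 12 of 36 with a Fkh2 peak and 6 of 10 without, and this difference was not tested. Of the 43 peaks with a gene in reach, 11 had 2 genes, and all 11 lay between divergent genes. The reach extends mainly upstream, so the rule itself favours divergent pairs, and this count has no background here. At these peaks the assay cannot say which gene of the pair, if either, the site serves.

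Genes of mitosis and chromosomes numbered 8, of which 7 were at peaks shared with Fkh2. The highest was wdr8, which encodes a WD repeat protein of the spindle pole, with a peak 58 bp upstream (II:1468335-1468569, rank 4). Its Sak1 tag count was 3999 over 13 control tags, a fold of 14.9 (95% counting interval 8.62 to 28.4), and its Fkh2 tag count was 1606. The peak 50 bp upstream of spo12, a nuclear protein gene of mitotic exit (I:2849205-2849439, rank 12), had a tag count of 2867 over 1 control tag. The Fkh2 peak there was weak, with a tag count of 757.4 and rank 90 of 152. At cdc25, the phosphatase that activates the mitotic kinase Cdc2, the centre lay 381 bp upstream in the 3′ UTR of hxk1 (I:482637-482871, rank 16), and the tag count was 2415 at a fold of 14.7 (7.30 to 34.5). These 3 peaks lay among the first 16 of the list, with control tags of 13, 1 and 8.

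The divergent promoter of klp5, a kinesin-8 motor, and cay1, the cactin gene, held a peak at rank 17 (II:1712003-1712237). Its centre was 3 bp from the start of klp5 and 747 bp from that of cay1, and its tag count was 2364 at a fold of 38.3 (12.9 to 187). The peak at knh1 and alp1 (II:3357640-3357874, rank 18) lay 7 bp upstream of knh1, a KRE9-like gene of the wall, and 710 bp upstream of alp1, the tubulin folding cofactor D. Its tag count was 2264 at a fold of 11 (5.84 to 23.3). At both of these promoters the Fkh2 peak was far down its list, at rank 82 and rank 121.

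The peak of plo1, the polo kinase (I:2164100-2164334, rank 22), had a tag count of 1987 and the lowest fold of the list, 5.25 (3.24 to 9.02), over 18.5 control tags. The rad21 peak (III:1342681-1342915, rank 45), at a cohesin subunit gene that is also a target of the G1/S factor MBF, had the lowest tag count among peaks shared with Fkh2, 666.5, at a fold of 9.25 (3.22 to 39.6). For both, the counting interval reached below 4. The peak without a Fkh2 peak in this class lay 57 bp upstream of slp1, which encodes the Cdc20-like protein that switches on the anaphase-promoting complex, and 940 bp upstream of eng1, the glucanase that cuts the septum (I:997575-997809, rank 30). Its tag count was 1434 over 2 control tags, a fold of 34.8 (9.42 to 291).

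All 6 genes of the contractile ring and septum were at peaks shared with Fkh2. The septation protein gene uds1 had the strongest, 55 bp upstream (II:1566193-1566427, rank 6), with a tag count of 3496 at a fold of 37.9 (15.4 to 127). The other 5 had tag counts of 1220 to 2062. They were cdc15 and imp2, which encode F-BAR proteins of the ring, myp2 and cdc4, a myosin II heavy and light chain, and rho4, a GTPase of septum breakdown. The cdc15 peak (I:1402863-1403097, rank 21) had a tag count of 2062 at a fold of 20.0 and was shared with not1, a CCR4-Not subunit gene on the other strand. The myp2 peak (I:2553586-2553820, rank 27) was centred on the gene's 5′ end, with 1648 and 20.0. The Fkh2 peak at myp2 was centred 180 bp away, the largest distance among the 36 shared peaks, whose median was 28 bp.

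The imp2 peak (II:3347735-3347969, rank 32) had a tag count of 1320.5 at a fold of 8.02 (3.92 to 19.1). The tam11 start was 884 bp from it. At cdc4 (I:5329018-5329252, rank 34) the tag count was 1270.2 at a fold of 15.4. The start of SPAP8A3.07C, annotated as an aldolase of aromatic amino acid synthesis, was 911 bp away. At rho4 (I:3086845-3087079, rank 36) the tag count was 1220 at a fold of 20.0. By tag count, uds1 and cdc15 lay among the first 23 peaks and the other 4 ring peaks after them, while the folds at cdc15, myp2, cdc4 and rho4 were all between 15.4 and 20.0.

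The cell wall and surface class was the largest, with 12 genes at 12 peaks, 11 of them shared with Fkh2. The peak that heads the Sak1 list lay between pun1, a SUR7-family membrane protein gene, and mde6, a muskelin gene (I:3696390-3696624). Its tag count was 4402 at a fold of 9.78 (6.36 to 15.8), and no other Sak1 peak had as many control tags, 22. The ecm33 peak, at a cell surface protein gene (I:1571593-1571827, rank 2), had a tag count of 4301 at a fold of 21.0 (11.3 to 44.1), and it headed the Fkh2 list. The gas1 peak, 258 bp upstream of a glucanosyltransferase gene (I:4880881-4881115, rank 7), had a tag count of 3421 at a fold of 41.7 (16.1 to 154).

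The divergent chitinase gene cts2 and gde1, a glycerophosphodiester phosphodiesterase gene, shared a peak at rank 8 (I:3292727-3292961) with a tag count of 3081 at a fold of 16.6 (8.62 to 36.8). At knh4 (II:1970243-1970477, rank 9) the tag count was 2955 at a fold of 72.1 (19.7 to 599). At fyu1, the uridylyltransferase gene that makes UDP-glucose (III:1291584-1291818, rank 13), the centre lay 398 bp upstream, in the 3′ UTR of trp1322, with a tag count of 2842 at a fold of 46.2 (15.6 to 226). The wall genes above thus include 6 of the first 13 peaks.

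Further down the list, the wall genes had smaller counts. The α-glucan synthase gene ags1 (III:1372848-1373082, rank 25) had a tag count of 1748 at a fold of 12.1 (5.74 to 30.7). The glucanosyltransferase gene gas5 (I:5309117-5309351, rank 35) had 1245 at 10.1 (4.47 to 28.1). The adg2 gene (I:4081137-4081371, rank 38), had 1170 at 37.9 (8.63 to 534) over 1.5 control tags. The glucosidase gene exg1 (II:3514233-3514467, rank 40) had 1069 at 26.6 (7.14 to 223). The Fkh2 peak at exg1 was strong by comparison, at rank 12 with a tag count of 3222.

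Sep1, under bortezomib, had 11 peaks, and 8 overlapped Sak1 peaks, among them those at psy1, ecm33, cts2/gde1, exg1, SPCC306.11, gas1 and knh4. All 8 were also Fkh2 peaks. Their Sak1 ranks ran from 2 to 41, so that they were not confined to the head of the list. The Sep1 tag counts there were 529.4 to 2206.

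Regulators of gene expression were 6 genes, all at peaks shared with Fkh2, and 5 are described here. The rep2 peak, 230 bp upstream of a gene that encodes an activator subunit of MBF (II:1717356-1717590, rank 3), had a tag count of 4024 over 1 control tag. Its fold was 196, with a counting interval from 35.0 upward. The Fkh2 tag count there was 1817 at rank 26. The poly(A) polymerase gene cid13 (I:987179-987413, rank 20) had 2138 at 8.09 (4.60 to 15.5), and the RNA-binding protein gene nrd1 (I:554975-555209, rank 26) had 1698 over 1 control tag. Also in this class were not1 and cay1, at the divergent promoters given above.

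Among membrane traffic genes, bet1, a SNARE of vesicles between the endoplasmic reticulum and the Golgi, had the highest tag count, 2918 over 0.5 control tags (I:1051211-1051445, rank 10). Its fold was 47.3 against 3 control tags, and the counting interval of its deposited fold began at 30.1. The plasma membrane SNARE gene psy1 (III:1029251-1029485, rank 24), centred in the 3′ UTR of naa40, had 1849 at a fold of 45.2 (12.3 to 377). The emp24 and pac4 peak (III:930391-930625, rank 37), at a vesicle protein gene and a proteasome chaperone gene, had 1207 at 5.33 (2.85 to 11.04). The first 2 of these folds were high in the list, and the third was among its lowest.

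The gene mug122, which encodes a PX-domain protein, had a peak (III:401705-401939, rank 5) with a tag count of 3773 over 0.5 control tags. Against 3 control tags the fold was 61.5, and the counting interval of the deposited fold began at 39.2. The deposited fold at mug122 is the highest of the list only through that 0.5, since rep2 had more Sak1 tags over 1 control tag. The Fkh2 peak at the same place had a tag count of 3274 at rank 11. The peak at SPCC306.11, an uncharacterized protein gene (III:430137-430371, rank 41), was stronger in the Fkh2 library, with tag counts of 4056 for Fkh2 and 1031 for Sak1.

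Translation and tRNA genes were 5, and the peaks had low folds, from 5.50 to 10.1. The qtr1 peak, 13 bp upstream of the gene for the transferase that puts queuine into tRNA (I:939665-939899, rank 15), had a tag count of 2503 over 12 control tags, a fold of 10.1 (5.67 to 19.9), and no Fkh2 peak. The peak at SPAC29A4.02C, a gene of elongation factor EF-1 gamma (I:5143612-5143846, rank 19), had 2251 at 8.15 (4.69 to 15.4). The mef1 and trm734 peak, at a mitochondrial elongation factor gene and a tRNA methylation gene (II:1180393-1180627, rank 29), had 1446 at 7.09 (3.72 to 15.2). The rps3002 peak (II:2349401-2349635, rank 28), which lies between this ribosomal protein gene and SPBC19G7.04, a gene of DNA-protein crosslink repair, had 1572 at 5.50 (3.16 to 10.3). Control tags were 10 to 14 at all 4 of these peaks, above the expected mean of 9.05. Of 146 cytoplasmic ribosomal protein genes in the annotation, rps3002 was the 1 in reach (0.685%, near the 1.06% of all genes).

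Both other DNA genes were at peaks without a Fkh2 peak. The mus81 peak, 116 bp upstream of the gene for a subunit of the nuclease that resolves Holliday junctions (III:462487-462721, rank 14), had a tag count of 2553 over 8 control tags, a fold of 15.6 (7.76 to 36.6). The top1 peak (II:2944448-2944682, rank 23), centred in an intron 31 bp into the DNA topoisomerase I gene, had 1874 over 5 control tags, a fold of 18.3 (7.68 to 57.3).

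Role classes were chosen with earlier results known, and fyu1, the UDP-glucose gene at a shared peak, was classed with the wall. The 4 genes classed under sugar and malate metabolism were all at peaks without a Fkh2 peak. They were the hexose transporter gene ght8 (III:229249-229483, rank 33), the malate dehydrogenase gene mae2 (III:277443-277677, rank 42), the phosphoglucomutase gene pgm1 (II:2802149-2802383, rank 43) and the hexokinase gene hxk2 (I:2664577-2664811, rank 44). Their tag counts were 1320.5, 1006, 792.3 and 779.7, over 6, 2, 0.5 and 5 control tags. The folds were 10.7 (4.75 to 29.8) for ght8, 24.4 (6.55 to 205) for mae2 and 7.58 (3.08 to 24.2) for hxk2. For pgm1 the fold was 12.8 against 3 control tags, and the counting interval of its deposited fold began at 7.97. The hxk2 centre lay 929 bp upstream, in the coding sequence of mug114, and the ght8 centre 521 bp upstream. When the reach was cut to 500 bp before the start and 0 after it, pgm1 and mae2 alone of the 4 stayed assigned. Weak as they were, with the lowest median tag count of the 9 classes (899.2), they make up 4 of the 9 genes at peaks without a called Fkh2 peak.

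Of a list of 35 matched genes of sugar and carbon metabolism, Sak1 peaks reached these 4 and Fkh2 peaks reached 5 others, with none in common. Of 28 matched M-phase genes Sak1 peaks reached 12 and Fkh2 peaks 13, with 11 in common. In that list slp1 was the gene reached by Sak1 alone, and chs2 and ark1 were reached by Fkh2 alone. Of 34 ring and septum genes both reached the same 6. Of 40 cell wall genes each reached 11, with 10 in common. Of 36 DNA repair and topology genes Sak1 reached 2 and Fkh2 0. These lists overlap, and they were chosen with earlier results of these data known, so no list is independent evidence. Over all genes the shares were 1.06% for Sak1 and 2.84% for Fkh2, so a Fkh2 count of 0 among 36 genes is near the background. With only 4 and 5 of 35 sugar genes reached, the lack of a common gene was not tested.

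**Figure D2:**
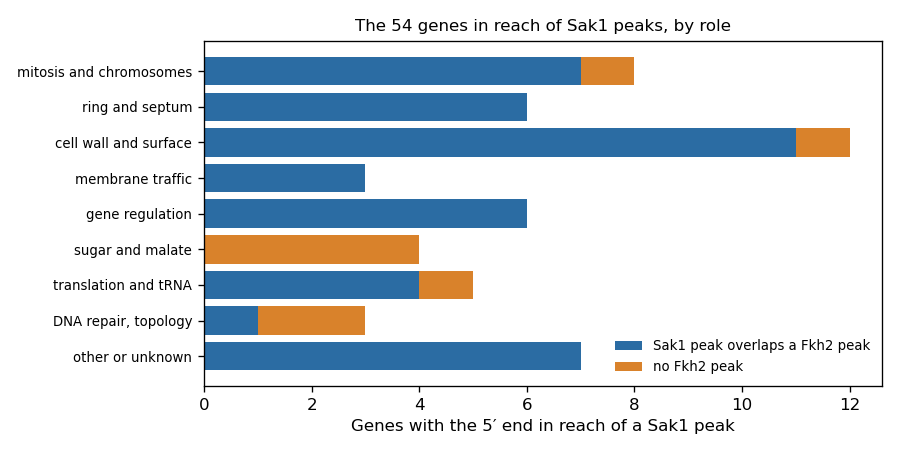
Number of the 54 genes in each role class, split by whether the Sak1 peak overlaps a Fkh2 peak (blue) or not (orange). The wall and surface class has 11 genes at shared peaks and 1 at a peak without Fkh2, and the sugar and malate class has 0 and 4.

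The remaining peaks had no gene start in reach. The peak at rank 31 lay in the coding sequence of SPCC1840.13 (III:2257658-2257892), 392 bp after its start, with a tag count of 1408 at a fold of 17.1 (6.50 to 63.9), and overlapped a strong Fkh2 peak with a tag count of 3514. The peak at rank 46 (II:1601722-1601956) had a tag count of 654 over 1 control tag, a fold of 31.8 (5.46 to 1279). It had 12 tRNA genes within 5000 bp, the nearest 160 bp from it, and the nearest protein-coding start was that of rpb1, 10699 bp away. Of the 46 nuclear peaks, 2 lay within 500 bp of a tRNA gene, this one among them, and no background share is given. The last peak (II:77925-78159) had a tag count of 440.2 over 1 control tag, a fold of 21.4 (3.60 to 869), so its counting interval reached below 4. It lay 77.9 kb from the chromosome end. The mitochondrial peak, at rank 39, had 1094 over 4 control tags; the coordinates of that chromosome could not be checked.

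The forkhead word lay at most Sak1 peaks. Within 150 bp of the centre it was present at 33 of 46 peaks (71.7%, 95% interval 56.5 to 84.0), against 16.1% of 5112 windows of the same width placed 90 bp upstream of every gene start. It lay at 29 of the 36 peaks with a Fkh2 peak and at 4 of the 10 without, a difference that was not tested. Its share at Fkh2 peaks without a Sak1 peak was similar, 84 of 116 (72.4%). The RFX arms GTTGCCA and GTTACCA lay at 15 of 46 peaks (5.18% of gene starts). The form GTTGCTA lay at 16 of 46 (5.24%), and the form GTTGTCA at 16 of 46 (3.56%). At Fkh2 peaks without a Sak1 peak these 3 counts were 8, 6 and 5 of 116. The comparison word ACGCGT, the MCB element of G1/S genes, lay at 4 of 46 (3.33% of gene starts). It lay at 13 of the 116 Fkh2 peaks without a Sak1 peak (11.2%).

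Inverted pairs were most frequent at Sak1 peaks with 6 bases between the outer 4 bases of the arms, of spacings from 0 to 12. Such a pair is 14 bases long, so 2 arms of 7 bases abut in it. Pairs were searched as GTT with G or A, then bases of any kind, then C or T with AAC, and the number of bases between was varied from 0 to 12. With 6 bases between, a pair lay at 20 of 46 Sak1 peaks (43.5%, interval 28.9 to 58.9), against 2.41% of gene starts and 7 of 116 Fkh2 peaks without a Sak1 peak. At every other length from 0 to 12, 0 to 3 of the 46 peaks held one. This motif was chosen after the peak sequences had been seen. A form listed earlier, with 5-letter arms (GTTGC or GTTAC, then GCAAC or GTAAC) and spacers of 2 to 5 bases, found 7 of 46 (0.469% of gene starts). With 4 bases between, it spans the same 14 bases as the pair and fixes a further letter of each arm. All 7 of its peaks were among the 20, so it is a stricter form of the same pair there. The form GTTGNNNNNNCAAC lay at 14 of 46 peaks (30.4%), at 3 of the 116 Fkh2 peaks and at 0.606% of gene starts.

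**Figure D3:**
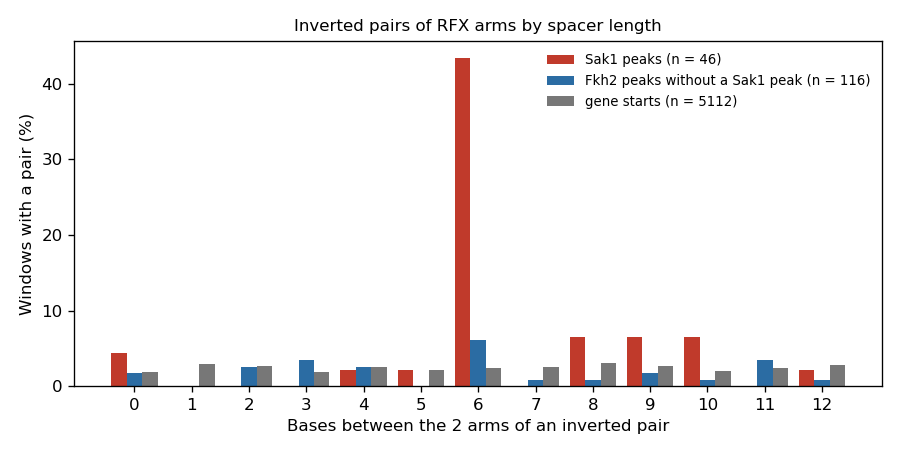
Share of windows (percent, 301 bp each) that hold an inverted pair of RFX arms, for 46 Sak1 peaks (red), 116 Fkh2 peaks without a Sak1 peak (blue) and 5112 gene starts (grey). The horizontal axis is the number of bases between the outer 4 bases of the arms. At 6 bases the Sak1 peaks reach 43.5% and the gene starts 2.41%; at other lengths the Sak1 share is at most 6.52%.

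The 20 pairs are set out below from the highest tag count to the lowest, all on the forward strand, with the outer 4 bases of each arm in capitals, so that the fixed spacing and the changing middle can be read.

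mde6/pun1, I:3696486-3696499: GTTGtcatgaCAAC

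wdr8, II:1468456-1468469: GTTGctatgaCAAC

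mug122, III:401861-401874: GTTGgcatggCAAC

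gas1, I:4881063-4881076: GTTGtcctagCAAC

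cts2/gde1, I:3292836-3292849: GTTGgcatagCAAC

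knh4, II:1970420-1970433: GTTAccctgaCAAC

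bet1, I:1051350-1051363: GTTGccccagTAAC

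spo12, I:2849314-2849327: GTTGtcatggCAAC

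fyu1, III:1291700-1291713: GTTGcctaggTAAC

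mus81, III:462580-462593: GTTGtcccggCAAC

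qtr1, I:939825-939838: GTTGctatagCAAC

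cdc25, I:482751-482764: GTTGccctagCAAC

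knh1/alp1, II:3357707-3357720: GTTGtcagagCAAC

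SPAC29A4.02C, I:5143717-5143730: GTTGccaggaCAAC

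cid13, I:987266-987279: GTTGgcatgaCAAC

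plo1, I:2164171-2164184: GTTGtcgtagCAAC

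top1, II:2944645-2944658: GTTGtcatgaCAAC

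myp2, I:2553745-2553758: GTTActatggCAAC

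mef1/trm734, II:1180531-1180544: GTTAccgcggTAAC

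adg2, I:4081225-4081238: GTTActatggTAAC

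In 4 of the 20, at mde6/pun1, qtr1, top1 and mef1/trm734, all 7 bases of the left arm pair with those of the right, so the site is a perfect palindrome. The pairs at mde6/pun1 and top1 are the same 14 bases, the first beside a forkhead word and a Fkh2 peak and the second with neither. The pair lay at a median of 25.5 bp from the peak centre (1 to 87), and within 30 bp in 12 of 20. The forkhead word nearest the centre lay at a median of 40 bp (1 to 112) over 33 peaks, and within 30 bp in 15. These sets of peaks differ, and at peaks that held both words either could be the nearer. At mug122 the forkhead word was 8 bp and the pair 46 bp from the centre, and at cdc25 they were 32 bp and 4 bp from it. Where a peak held both, in 13 cases, the nearest forkhead word was 15 to 184 bp from the pair, with a median of 33 bp, and no common distance was seen.

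Paired peaks stood high in the list. Of the 23 peaks with the higher tag counts 17 held a pair, and of the 23 with the lower counts 3 did. The stricter GTTGNNNNNNCAAC lay at 14 of the first 23 and 0 of the last 23. The motif was chosen after the peak sequences had been seen, so both splits are descriptions and not independent evidence. Tag counts of paired peaks were 1170 to 4402 (median 2528), and of unpaired peaks 440.2 to 4301 (median 1320.5), so the groups overlapped. In fold the medians were 16.1 paired and 20.5 unpaired, and in control tags 8 and 4. Control tags thus moved with the pair as tag counts did, and their part in the tag counts was not tested. Allowing 1 mismatch, 36 of 46 peaks held a pair, but so did 40.2% of gene starts.

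**Figure D4:**
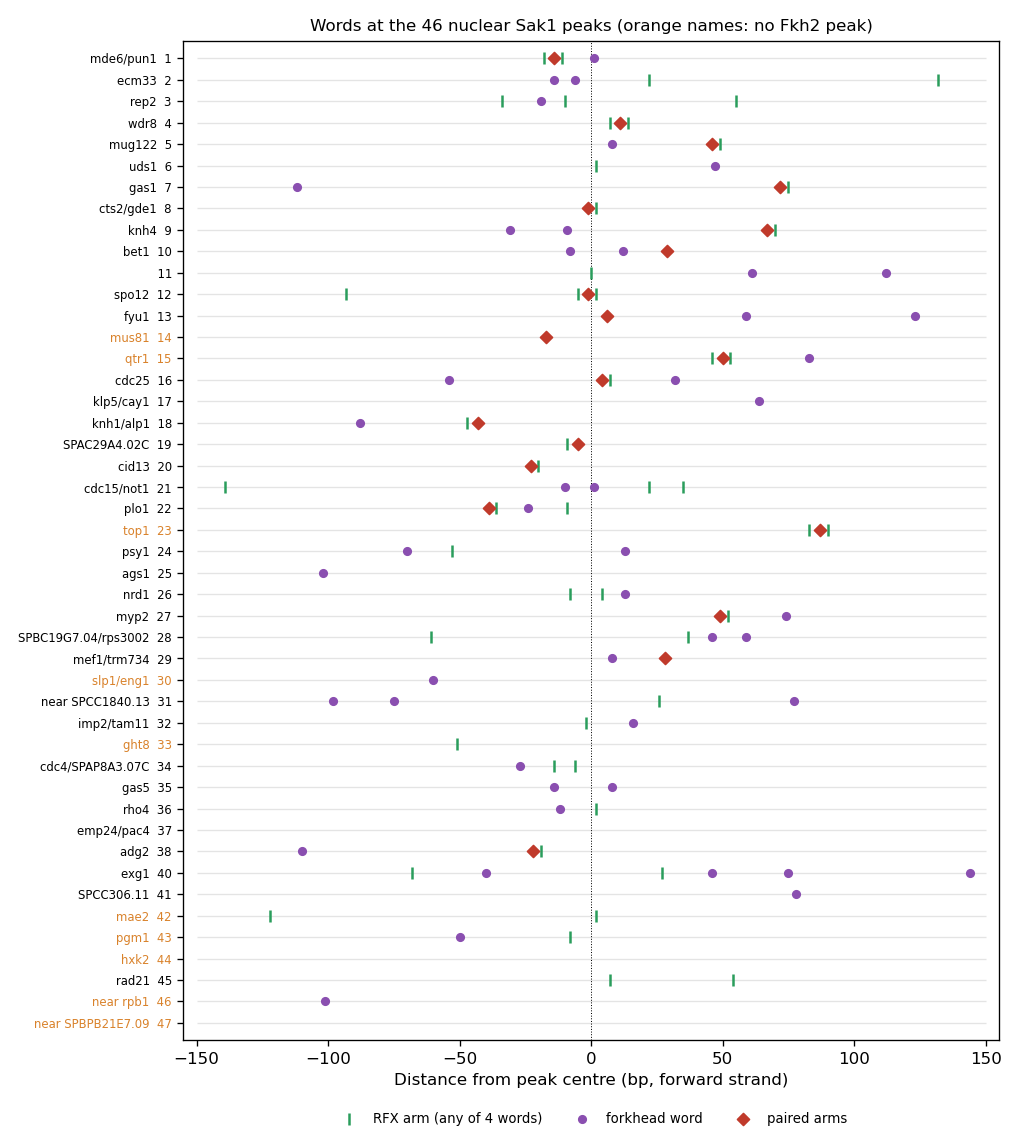
Position of RFX arms (green ticks), forkhead words (purple) and inverted pairs (red diamonds) around the centre of each of the 46 nuclear Sak1 peaks, in order of tag count. Pairs have 6 bases between the outer 4 bases of the arms. The horizontal axis is the distance from the peak centre in bp. Diamonds are in 17 of the upper 23 rows and 3 of the lower 23, and orange names are peaks without a Fkh2 peak.

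The words fell into 4 combinations. Of the 46 peaks, 13 held a pair and a forkhead word, 7 a pair without a forkhead word, 20 a forkhead word without a pair and 6 neither. Of the 20 pairs, 17 were at peaks with a Fkh2 peak and 3 at peaks without, namely mus81, qtr1 and top1. Of the 7 peaks with a pair and no forkhead word, 5 still overlapped a Fkh2 peak, at wdr8, cts2/gde1, spo12, SPAC29A4.02C and cid13. Among peaks without a pair, 17 held at least 1 of the 4 arm words. Close, unpaired or differently spaced arms stood at nrd1 and cdc4, and a single arm at imp2, each beside a forkhead word.

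nrd1, I:555062-555122: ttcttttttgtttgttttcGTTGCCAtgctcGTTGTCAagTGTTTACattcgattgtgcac

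cdc4/SPAP8A3.07C, I:5329095-5329155: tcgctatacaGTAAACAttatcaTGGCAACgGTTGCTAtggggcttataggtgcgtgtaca

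imp2/tam11, II:3347827-3347877: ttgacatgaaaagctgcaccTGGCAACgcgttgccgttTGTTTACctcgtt

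The peaks without a Fkh2 peak also differed by word, again a description with a motif chosen after the sequences had been seen. The 3 with a pair were the 3 with the highest tag counts of the 10, 2553 at mus81, 2503 at qtr1 and 1874 at top1. The other 7 had tag counts of 440.2 to 1434. Of these 7, 5 held a word: an arm at ght8 and mae2, a forkhead word at slp1/eng1 and the peak nearest rpb1, and both an arm and a forkhead word at pgm1. No word was found at hxk2 or the last peak. The qtr1 peak also held a forkhead word, 83 bp from its centre, and the mae2 peak a second arm. Windows around the pair or the word nearest the centre are given in order of tag count, and that second arm and the qtr1 forkhead word lie outside them; the pgm1 window holds both of its words.

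mus81, III:462559-462619: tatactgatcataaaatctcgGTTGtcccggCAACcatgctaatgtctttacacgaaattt

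qtr1, I:939820-939844: attaaGTTGCTATAGCAACcaatag

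top1, II:2944635-2944670: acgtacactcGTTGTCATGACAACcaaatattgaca

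slp1/eng1, I:997618-997647: tttagatgattTGTTTACaataaattcagg

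ght8, III:229301-229331: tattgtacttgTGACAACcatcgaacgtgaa

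mae2, III:277540-277580: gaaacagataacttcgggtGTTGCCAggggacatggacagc

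pgm1, II:2802201-2802276: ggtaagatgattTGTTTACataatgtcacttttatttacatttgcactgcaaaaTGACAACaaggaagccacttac

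nearest start rpb1, II:1601724-1601754: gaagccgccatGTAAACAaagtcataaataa

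A matching word is a description of the letters in a window and not a site that was tested, and no match at the remaining peaks says only that these letters were not within 150 bp of the centre.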

How the data were processed

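ChIP-seq was read from 1 deposited peak list per tagged factor. The tools named in the submitters' processing notes are SAMtools 0.1.18, Bowtie2 2.1.0 and HOMER. The role of the tools is not stated there, and the genome build is not given in the sources used here. HOMER, per the file headers, called peaks of 235 bp in the Sak1 library, with untagged tags as the control. The headers give 1109 putative Sak1 peaks, of which 907 were removed against the control and 155 against local signal, at 4 fold over each and a false discovery rate of 0.001. The authors deposited normalised tag counts and control tags (a signal), fold ratios over control and local background, the focus ratio (a fraction), the findPeaks score and p-values; the score and p-values entered no result.

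Coordinates were read against ASM294v3 with its RefSeq annotation. As a check, the forkhead word lay at no more than 7 of 46 peaks, and the pair at no more than 2, after moving every peak 1000 to 5000 bp to either side, by 500 bp at a time. The control library size was inferred as the ratio at which tags behind the folds were whole numbers, within 0.0939 of one. Intervals for shares are exact (Clopper-Pearson), and those for folds are exact given the sum of tags. Overlap search, pair search and intervals were tested on simulated data, the intervals with whole control counts only. Python 3.11.15 and scipy 1.17.1 were used.

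Every gene in reach of a Sak1 peak was named, or the nearest gene start where none was, except for 1 gene that is not reported here. The members, gene lists, words and role classes were chosen with earlier results of these data known, so no list is independent evidence. The lists held 346 symbols in 13 lists, of which 6 could not be matched. No test between samples was made, since each group is 1 pooled library. Alternatives changed the overlap, gene reach, word window and peak threshold.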

Additional observations from a re-analysis of the deposited data

How the results depend on the processing

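Of 81 alternatives, 73 left the value within its counting interval or within 1.5 times the main count. The share of Sak1 peaks overlapping a Fkh2 peak was 52.2% against only the 47 strongest Fkh2 peaks, and 78.3% against all of them. The median tag count of peaks with a Fkh2 peak was 1.81 times that of peaks without, but the same ratio for fold over control was 0.933, in the other direction; the cause was not tested. The forkhead word lay at 52.2% of peaks within 75 bp. The pair lay at 73.9% of the upper 50% of peaks and at 78.3% with 1 mismatch allowed, and 100% of the upper 50% had a gene start in reach. The pair, its spacing and its settings were added after the data were seen. When the reach was cut to 500 bp before the start and 0 after it, 9 genes were lost (eng1, ght8, hxk2, top1, alp1, cay1, gde1, tam11 and SPAP8A3.07C), leaving 2 of the 4 sugar genes and 1 of the 2 DNA repair genes. At 8 fold or more, 40 peaks and 45 genes were left.

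No paired analysis was possible because each sample pools 2 experiments into 1 list. With 1 library per factor, leaving out a replicate could not be run. The control library, 0.611 times the size of the Sak1 library, gives few tags per peak, so high folds are poorly bounded above. All 3 factors share the 1 untagged library, and an input of unprecipitated chromatin was not analysed here.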

Other observations

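Some gene lists not described above had members in reach of a Sak1 peak. Of 30 mitotic regulators Sak1 peaks reached 4 (13.3%), of 14 cell cycle transcription factors 2 (14.3%), of 37 membrane traffic genes 2 (5.41%) and of 20 G1/S genes of MBF 1 (5%), rad21, against 1.06% of all genes. Fkh2 peaks reached 6, 3, 2 and 5 of these lists, in the same order, against 2.84% of all genes. These lists too were chosen with earlier results of these data known and are not independent evidence.

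Of 24 genes of sexual differentiation and the protein kinase A pathway, the pathway in which Sak1 was first described, Sak1 peaks reached 0 and Fkh2 peaks 4, namely mei2, mei3, ste6 and map2. Of 20 abundantly transcribed glycolytic and translation genes Sak1 peaks reached 0 and Fkh2 peaks 4, and of 11 histone genes both reached 0. At 1.06% of all genes, lists of this size would seldom hold a member, so a count of 0 is near the background and says nothing particular of these lists.

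The GC content of the 301 bp windows at Sak1 peaks had a median of 35.2% (29.6 to 44.5), against 32.9% for windows at gene starts.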
